A study of Mus musculus with 2 samples.

Results

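Selenoprotein genes encode proteins that hold selenocysteine, the selenium analogue of cysteine, and 10 such genes were taken from a list of older gene symbols. They are Sepp1, Dio1, Sepx1, Sephs2, Sep15, Selm, Selk, Sels, Selt and Sepw1. A row was found for 9 of the 10 among the 8551 genes of the deposited table. Sels was listed as H47 and Selt as 2810407C02Rik, both matched by Entrez number, and no row was found for Sepw1. The genes were chosen by name, and no measured value entered the rule.

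The study compared the liver of normal and diabetic mice by digital gene expression tag profiling, with 1 library for each group. The normal library came from wild type C57BL/6 males and the diabetic library from db/db males, which the labels also place on the C57BL/6 background. All mice were 9 weeks old, ate chow freely and were killed about 3 h after lights on, and the labels name no treatment. db/db mice lack the long form of the leptin receptor in the whole body, so that overeating, obesity and diabetes come together in the model, and the study's methods name 2 suppliers for its mice. The sources used here do not say how many livers went into a library.

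Selenocysteine is inserted at UGA, a codon that otherwise ends translation, when the mRNA carries a SECIS element after its stop codon. The amino acid is made on its own tRNA from selenophosphate, and the liver passes much of its selenium to other organs as selenoprotein P, the secreted product of Sepp1. Other selenoproteins are enzymes that reduce peroxides, thioredoxin or methionine sulfoxide, or that remove iodine from thyroid hormones, and several sit in the membrane or lumen of the endoplasmic reticulum.

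The reading frame of each gene was taken from the GENCODE M21 annotation of the mouse genome (GRCm38), which is a later build than that of the deposited values. The files hold no coordinates, so positions below are those of GRCm38. In Sepp1 (chr15:3268547-3280508, plus strand) the frame of 380 codons held 10 in-frame TGA codons, the DNA form of UGA, and each of the other 9 genes held 1. The end of the Sepp1 frame with its stop codon is shown because 7 of the 10 selenocysteine codons, in capitals, lie in them.
Sepp1, codons 318 to 380: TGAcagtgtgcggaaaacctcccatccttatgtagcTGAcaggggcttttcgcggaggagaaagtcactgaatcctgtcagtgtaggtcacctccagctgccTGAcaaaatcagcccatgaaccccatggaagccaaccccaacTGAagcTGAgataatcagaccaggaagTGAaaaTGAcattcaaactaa
The single selenocysteine codon lay at very different places in the other frames. For 6 genes that the results turn on, it is given with up to 15 bases on each side and with TGA in capitals.
Dio1, codon 126 of 257: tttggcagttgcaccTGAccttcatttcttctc
Sepx1, codon 95 of 116: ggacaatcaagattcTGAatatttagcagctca
Sephs2, codon 63 of 452: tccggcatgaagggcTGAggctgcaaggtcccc
Sep15, codon 93 of 162: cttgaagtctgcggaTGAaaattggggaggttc
Selk, codon 92 of 94: ccaatggctggtggaTGAggaaggtaa
Sels, codon 189 of 190: ccatcatctggcggcTGAaactaa
In Selk and Sels the codon stood at the end of the frame, a few bases before the stop codon. In Sephs2 it stood in the first part of the frame.

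**Figure D1:**
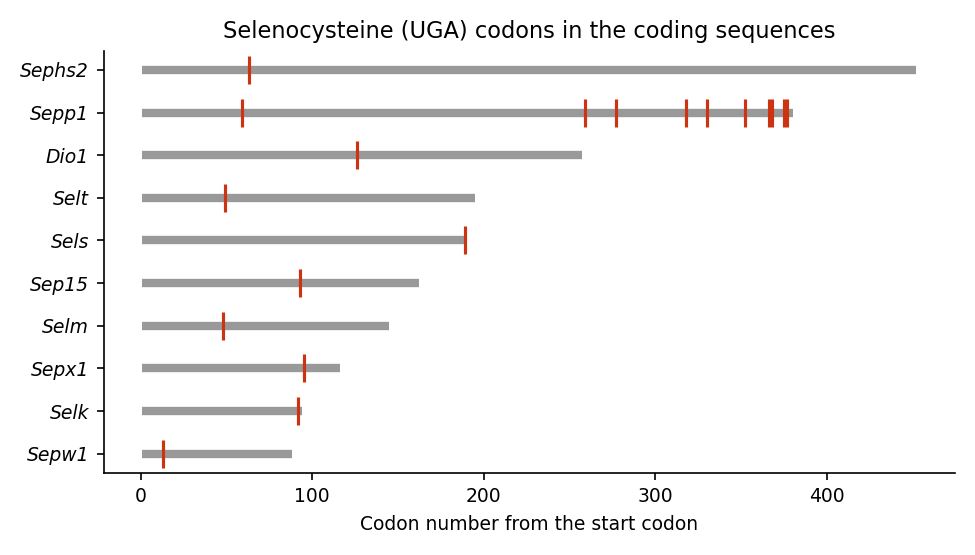
Position of each selenocysteine codon in the 10 reading frames, with the codon number on the horizontal axis and 1 line per gene that spans the length of its frame. Sepp1 has 10 such codons, 9 of them between codons 259 and 377, and the other 9 genes have 1 each.

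The assay counts 1 tag per mRNA, next to a GATC site cut by DpnII, and values are tags per 1000000 clean tags of a library (TPM in the deposited table). A TPM value therefore counts tags and is not divided by transcript length. The tag windows at the GATC nearest to the 3′ end are shown for the genes with a call below and for Sepp1, with GATC in capitals.
Sepp1: GATCgcttactgtgaggagag
Sep15: GATCtgataattggcaaattt
Sels: GATCtaaatgcccaagttgaa
Selk: GATCcggaagaaataaaggcc
For each of the 9 listed genes, the 21-base window was found in the transcripts of 0 other genes. The windows of Sepp1, Sephs2, Selm and Sels lay in the coding sequence and those of the other 5 after the stop codon. The site of Sepp1 was 1449 bases from the 3′ end of its transcript and that of Sepx1 was 32 bases from it. Which site gave the counted tags was not tested, since the table gives 1 value per gene.

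Sepw1 codes for selenoprotein W, a small protein of the cytosol. Its reference transcript of 736 bases held 0 GATC sites. Of 20871 protein-coding genes, 380 had no site in their reference transcript, and 377 of those 380 had no row. Only 8089 of the 20871 genes had a row, so a missing row was also common among the 20491 genes with a site. Whether the lack of a site accounts for the missing Sepw1 row was not tested. The table leaves out genes with a mean under 1 TPM, so a missing row is not a measured level, and nothing is said here about Sepw1 in either liver.

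Whole reads were recovered from the steps between deposited values, which gave 10278531 clean tags for the normal and 13508232 for the diabetic library. The listed genes took 37.06% and 44.37% of these tags, and the median listed gene had 71 and 111 reads. Over all listed genes the median log2 ratio of diabetic over normal values was 0.25, so that a gene at the median was itself higher in the diabetic library. A gene was called when its deposited values differed at least 1.5-fold and its false discovery rate (FDR) was under 0.001, by a two-sided exact binomial test of its reads with Benjamini-Hochberg adjustment over 8551 genes. This test compares 2 libraries and not 2 conditions, because no variation between mice enters it, and every interval below covers counting error only at 95%. Each call was also made after trimmed mean (TMM) scaling, which lowers every log2 ratio by 0.25.

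On the deposited values 3 of the 9 genes were called higher in diabetic liver, namely Sepp1, Sels and Sep15, and 0 were called lower. That is 33.3% of the 9, beside 22.9% of all listed genes called higher and 8.19% called lower, and 1 gene makes 11.1% of a list of this size. After TMM scaling the same 3 genes were called higher and 1 gene, Selk, was called lower. The shares of all listed genes were then 14.9% higher and 13.4% lower. The median log2 ratio of the 9 genes was 0.25, equal to that of all listed genes at this precision. By fold alone, 3 were at least 1.5-fold higher and 1, Selt, at least 1.5-fold lower, beside 34.4% and 15.3% of all listed genes.

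**Figure D2:**
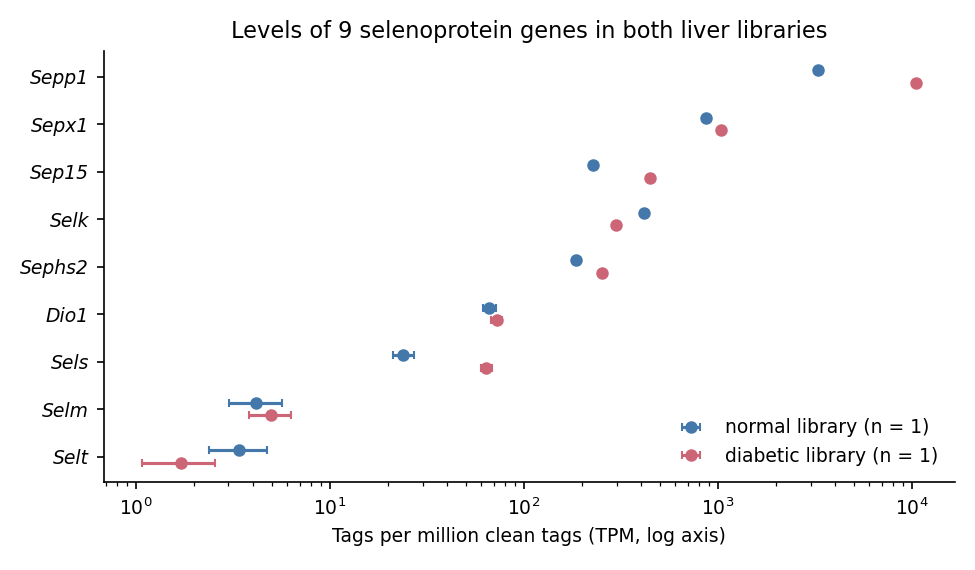
Level of each of the 9 listed genes by library, in TPM on a log axis, with 1 point per library and bars for the exact Poisson interval of the reads. Sepp1 stands above all others in both libraries, at 3289 and 10422 TPM, and Selk and Selt are the genes whose diabetic point lies below the normal point.

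Selenoprotein P carries selenium from the liver through the plasma. Sepp1 had 33811 reads in the normal library, or 3289 TPM with an interval of 3255 to 3325. It had 140777 reads in the diabetic library, or 10422 TPM with an interval of 10367 to 10476. The libraries were far apart beyond counting error, with a 3.17-fold higher level in diabetic liver. The log2 ratio was 1.66 (1.65 to 1.68) on the deposited values and 1.41 after TMM scaling, which is 2.66-fold. By tags, Sepp1 ranked 14 among all listed genes in normal liver and 1 in diabetic liver. The difference of 7132 TPM was the largest increase of any listed gene. Its share of the listed tags was 0.887% in normal liver (Wilson interval 0.878 to 0.897) and 2.35% in diabetic liver (2.34 to 2.36). No other selenoprotein gene of the list came near these levels.

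Among the 57 genes whose 2 values averaged 1000 TPM or more, Sepp1 had the third highest ratio. Thrsp, with a log2 ratio of 2.62, and Oat, with 2.40, lay above it. Both were under 1000 TPM in normal liver, at 825 and 338 TPM, and entered the set only through their diabetic values. The rank of Sepp1 thus depends on how the set was chosen. The 3 genes of that set with log2 ratios nearest to that of Sepp1 were Fbp1 at 1.63, Pck1 at 1.62 and Inmt at 1.60. Fbp1 and Pck1 encode enzymes of gluconeogenesis and Inmt encodes a methyltransferase that also methylates selenium compounds. All 3 were under 1000 TPM in normal liver and entered the set only through their diabetic values, so a high ratio was built into their choice. Likeness here is the distance of a single ratio between 2 libraries, and it is a description without a test.

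**Figure D3:**
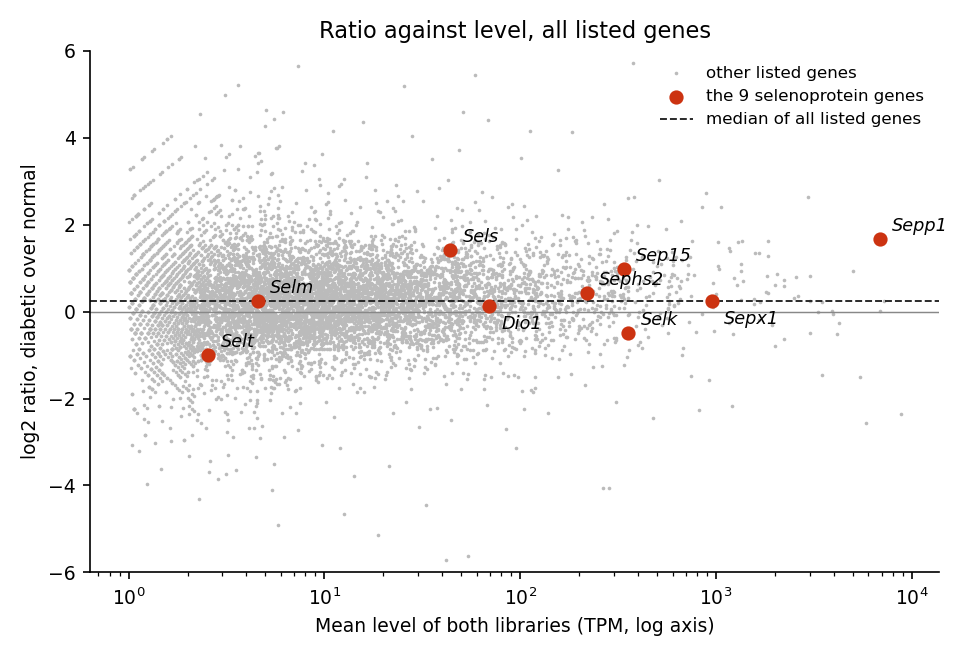
The log2 ratio of diabetic over normal TPM against the mean TPM (log axis) for all listed genes in grey, with the 9 genes marked. The vertical axis is limited to 6 in either direction, which leaves out 58 genes; Sepp1 lies at the far right at 1.66, while Selt and Selm lie among genes with few tags.

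The sum over the 9 genes was 5085 TPM in the normal and 12588 TPM in the diabetic library, a 2.48-fold difference. Sepp1 made up 64.7% of these tags in normal liver (Wilson interval 64.3 to 65.1) and 82.8% in diabetic liver (82.6 to 83.0). Without Sepp1 the sum was 1796 and 2166 TPM, which is 1.21-fold higher. The log2 ratio of the sum without Sepp1 was 0.27, near the 0.25 of the median listed gene, and the difference of the total thus came mostly from Sepp1 tags. There were 1.83 Sepp1 tags per tag of the other 8 genes in normal liver and 4.81 in diabetic liver.

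Dio1 encodes the type 1 deiodinase, which converts thyroxine to the active hormone and clears reverse T3 in liver. It had 680 reads in normal and 978 in diabetic liver, or 66.2 and 72.4 TPM. Its log2 ratio was 0.13 (-0.01 to 0.27), with an FDR of 0.119 by the exact binomial test, and -0.12 (-0.26 to 0.02) after TMM scaling. Both intervals hold 0, and the bounds give the range of ratios that counting error allows.

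Sepx1 encodes methionine sulfoxide reductase B1, which repairs oxidized methionine in proteins. It had the second highest tag level of the 9 genes, with 8909 and 13918 reads, or 867 TPM in normal and 1030 TPM in diabetic liver. The log2 ratio of 0.25 (0.21 to 0.29) was that of the median listed gene, and after TMM scaling it was -0.00 (-0.04 to 0.04). Its share of the tags of the 9 genes was 17.0% in normal liver (Wilson interval 16.7 to 17.4) and 8.19% in diabetic liver (8.06 to 8.32).

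Sephs2 encodes selenophosphate synthetase 2, itself a selenoprotein, which makes the selenium donor for selenocysteine. It had 1914 reads in normal and 3391 in diabetic liver, or 186 and 251 TPM. The 1.35-fold difference, a log2 ratio of 0.43 (0.35 to 0.51), did not reach 1.5-fold. The interval lay above the median of all listed genes, and after TMM scaling the log2 ratio was 0.18 (0.10 to 0.26).

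The next 5 genes encode selenoproteins of the endoplasmic reticulum, and they did not share a direction. Sep15 (chr3:144570304-144597680, plus strand), whose product binds the glycoprotein folding sensor UGGT, had 2340 reads in normal and 6023 reads in diabetic liver. These are 228 and 446 TPM, a 1.96-fold higher level with a log2 ratio of 0.97 (0.90 to 1.04). After TMM scaling the level was 1.64-fold higher and the call held, whereas a fold threshold of 2 ended it.

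Selm encodes a thioredoxin-like protein of the same family as Sep15. Only 43 and 67 reads were counted, or 4.18 and 4.96 TPM. Its log2 ratio of 0.25 ran from -0.33 to 0.83, and its FDR was 0.533 by the exact binomial test. A difference was not detectable at this depth, and differences of up to 0.83 on the log2 scale lie inside the interval.

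Sels (chr7:66079649-66089405, plus strand) encodes a membrane protein that joins the p97 ATPase to the derlin channel in the removal of misfolded proteins. It had 246 reads in normal and 865 reads in diabetic liver, or 23.9 and 64.0 TPM. The 2.68-fold higher level in diabetic liver was, after that of Sepp1, the second highest ratio of the 9 genes. Its log2 ratio was 1.42 (1.21 to 1.63), with an FDR of 8.77e-48 by the exact binomial test, and 1.17 after TMM scaling.

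Selk (chr14:29968308-29975662, plus strand) encodes a small membrane protein that works with the acyltransferase DHHC6 and also binds derlins. It had 4292 reads in normal and 4000 reads in the deeper diabetic library, or 418 and 296 TPM. The level was 1.41-fold lower in diabetic liver, a log2 ratio of -0.50 (-0.56 to -0.43). The deposited values thus gave no call. After TMM scaling the ratio was 1.68-fold lower, or -0.75, and Selk was called lower under TMM and each of the 3 further scalings tried.

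Selt encodes a thioredoxin-like membrane protein. It had 35 reads in normal and 23 in diabetic liver, or 3.41 and 1.70 TPM. The value was 2.01-fold lower, with bounds from -1.83 to -0.20 on the log2 scale, and it was not called, with an FDR of 0.0221 by the exact binomial test. Sels and Selk, both partners of derlins, thus lay on opposite sides of 0 on the deposited values and under every scaling tried.

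**Figure D4:**
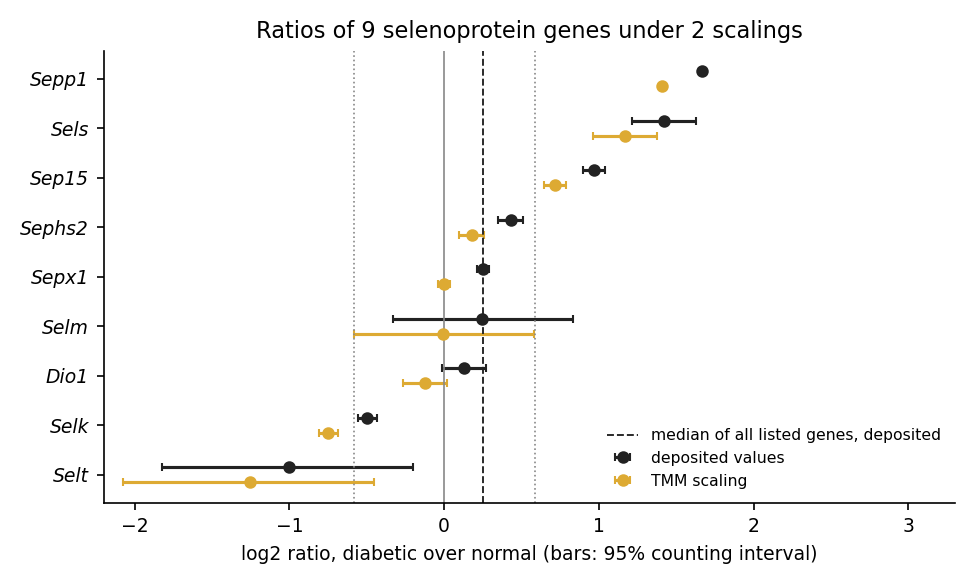
The log2 ratio of diabetic over normal levels for each of the 9 genes on the deposited values and after TMM scaling, with bars for the counting interval. The dashed line marks the median of all listed genes at 0.25 and the dotted lines a 1.5-fold difference; Sepp1, Sels and Sep15 lie beyond the upper dotted line under both scalings. Selt lies beyond the lower one under both, without a call, and Selk passes it only after TMM scaling.

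The markers of the cell types in liver did not move as 1 block. For the hepatocyte, 6 of 7 markers were listed and their sum was 24423 TPM in the normal and 12023 TPM in the diabetic library, and most of that difference was Apoa1, at 14668 and 2875 TPM. Apoa1 and Apob, the latter at 804 and 147 TPM, were called lower, and 4 of the 6 had lower values in diabetic liver. Albumin (Alb) was at 6801 and 6912 TPM, and Cps1 was called higher, at 130 and 317 TPM. For Kupffer cells 5 of 7 were listed, all with lower values in diabetic liver, and their sum was 101 and 82.0 TPM. Most of that sum was Cd5l, at 64.7 and 62.9 TPM, and Cd5l, Clec4f and Cd68 were not called. Csf1r, at 21.7 and 10.1 TPM, and Adgre1, at 8.95 and 4.37 TPM, were called lower. The sums were 64.8 and 71.2 TPM for 6 of 6 endothelial markers, 77.0 and 107 TPM for 4 of 6 stellate cell markers, and 61.5 and 107 TPM for 3 of 5 cholangiocyte markers. Of the endothelial markers 4 had lower values in diabetic liver, while Kdr was called higher, at 12.0 and 22.1 TPM. Among the stellate cell markers 3 had higher values. Col1a1 was called higher, at 3.11 and 9.4 TPM, and Reln was called lower, at 12.8 and 7.11 TPM. Most of the cholangiocyte sum was Spp1, at 57.2 and 103 TPM, and Krt7 and Epcam were not called. Of the erythroid markers 1 of 3 was listed, at 51.9 and 44.2 TPM, and of the lymphocyte markers 0 of 4. Their part in the values of the selenoprotein genes was not tested, and in whole liver fewer cells of a type and less RNA per cell cannot be told apart. No row was found for Lepr, the gene mutated in db/db mice, so the genotype was not checked in these data.

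With the remaining genes of the mouse selenoproteome, 24 genes with an annotated selenocysteine codon were counted, and 17 of them were listed. Of these 17, 6 were called higher and 0 lower on the deposited values, where 22.9% and 8.19% of all listed genes were called. After TMM scaling 5 were called higher and 3 lower, beside 14.9% and 13.4% of all listed genes. Beyond the 9 genes above, the calls were for glutathione peroxidases and a thioredoxin reductase. Gpx1, the cytosolic glutathione peroxidase, was at 1065 TPM in normal and 2605 TPM in diabetic liver, a log2 ratio of 1.29. Gpx4, which reduces lipid peroxides in membranes, was at 183 and 717 TPM, a log2 ratio of 1.97 that was above that of Sepp1. Txnrd1, the cytosolic thioredoxin reductase, was at 85.9 and 144 TPM, with a log2 ratio of 0.75 that was not called after TMM scaling. Selo and Ept1, at 29.9 and 20.2 TPM and at 20.1 and 14.7 TPM, were called lower only after rescaling, as Selk was. Gpx3, Sepn1 and Txnrd3 had at most 103 reads in either library and were not called.

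Each Sepp1 tag stands for a frame with 10 selenocysteine codons, so tags were also weighted by that number. Over the 17 genes the weighted sum was 36083 TPM in normal and 109894 TPM in diabetic liver, or 3.05-fold higher. Sepp1 made up 91.2% of it in normal and 94.8% in diabetic liver. Without Sepp1 the weighted sum was 3189 and 5678 TPM, or 1.78-fold higher. This is a count of codons in mRNA tags, and it measures neither protein nor selenium.

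Of 11 genes for making and inserting selenocysteine 6 were listed, with 1 called higher and 0 lower, beside 22.9% and 8.19% of all listed genes. Their median log2 ratio was 0.23, beside 0.25 for all listed genes. Sepsecs, the enzyme that forms selenocysteine on its tRNA, had 14 reads in normal and 61 in diabetic liver, a log2 ratio of 1.73 that rests on few reads and was not called after median-ratio scaling. Pstk, the kinase of the preceding step, was at 15.3 and 18.9 TPM. Eefsec, the elongation factor for selenocysteine, was at 4.86 and 4.37 TPM, and Trnau1ap, a protein bound to the selenocysteine tRNA, at 14.9 and 21.9 TPM. The seryl-tRNA synthetase Sars was at 11.3 and 6.88 TPM and was called lower after TMM scaling.

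Among genes of selenium uptake, supply and excretion, 6 of 10 were listed. On the deposited values 2 were called higher and 0 lower, beside 22.9% and 8.19% of all listed genes, and after TMM scaling 2 were called higher and 2 lower, Cbs and Lrp1. Cth, the lyase that breaks cystathionine and selenocystathionine, was 6.14-fold higher, at 99.8 TPM in normal and 613 TPM in diabetic liver. Cbs, the enzyme before it in transsulfuration, was at 536 and 359 TPM, 1.49-fold lower on the deposited values. Lrp1, a large endocytic receptor, was at 105 and 72.6 TPM. Inmt, named above, was at 642 and 1944 TPM. Scly, which frees selenium from selenocysteine, was at 88.5 and 123 TPM and was not called.

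Of 5 methionine sulfoxide reductase and thioredoxin genes that need no selenium, 4 were listed. On the deposited values 3 were called higher, beside 22.9% of all listed genes, and after TMM scaling 2 were, beside 14.9%. Msra, the reductase for the other stereoisomer of methionine sulfoxide, was at 151 TPM in normal and 270 TPM in diabetic liver, and its call was lost under 3 of the 4 scalings, though not under TMM. Txn2, the mitochondrial thioredoxin, was at 86.6 and 188 TPM, and Txn1, the cytosolic one, was at 235 and 395 TPM and was not called after TMM scaling. Msrb3, which like Sepx1 encodes a B-type methionine sulfoxide reductase, had 29 and 31 reads, or 2.82 and 2.29 TPM, and was not called. The ratio of Sepx1 thus lay below those of the 3 called genes. It lay inside the wide interval of Msrb3, -1.08 to 0.48 on the log2 scale, and the differences between genes were not tested.

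Of 11 partners of the selenoproteins of the endoplasmic reticulum 7 were listed, with 1 called higher and 2 lower, beside 22.9% and 8.19% of all listed genes. Uggt1, the folding sensor that binds the Sep15 product, was at 13.4 TPM in normal and 4.74 TPM in diabetic liver, a log2 ratio of -1.50, while Sep15 was higher. Derl3, a derlin, had 60 and 6 reads, or 5.84 and 0.44 TPM. Zdhhc6, the acyltransferase that works with Selk, was at 32.1 and 51.2 TPM, a log2 ratio of 0.67, and was not called after TMM scaling. Thus Sep15 and Uggt1 moved in opposite directions and Selk did not have the direction of Zdhhc6.

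Around Dio1, 6 of 11 genes of thyroid hormone handling were listed and 2 were called higher, beside 22.9% of all listed genes. Thrsp, a thyroid hormone-responsive gene of lipid synthesis, was at 825 TPM in normal and 5089 TPM in diabetic liver, a log2 ratio of 2.62. Serpina7, the thyroxine-binding globulin, was at 5.84 and 11.2 TPM and was not called after TMM scaling. The receptor Thrb was at 13.9 and 11.5 TPM and was not called, as Dio1 was not.

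Of 7 factors known to act on the Sepp1 promoter, 5 were listed. Hnf4a was lower, at 96.8 TPM in normal and 46.2 TPM in diabetic liver, with a log2 ratio of -1.07. Cebpb, at 120 and 188 TPM, was called higher on the deposited values but not after TMM scaling. Foxo1, at 5.93 and 6.88 TPM, and Cebpa, at 218 and 255 TPM, were not called. The mRNA levels of the factors named here thus had no common direction beside the higher Sepp1 level, and their activity was not measured.

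**Figure D5:**
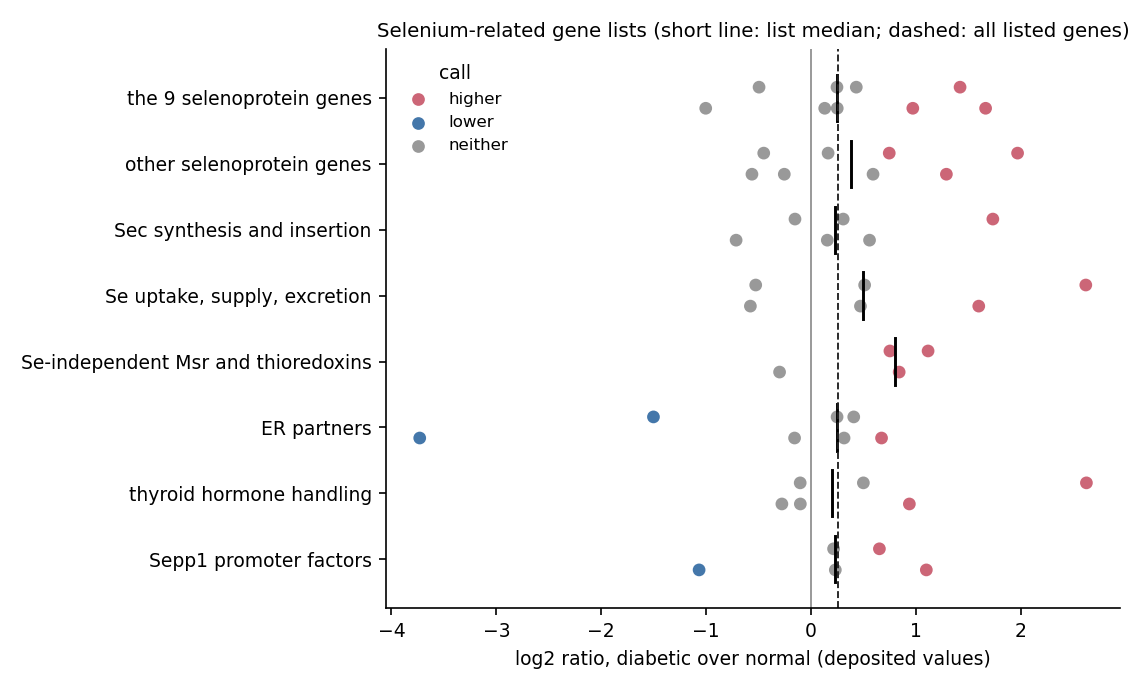
The log2 ratio of diabetic over normal TPM for each listed gene of the 9 selenoprotein genes and of 7 related lists, with a short line for the median of a list and a dashed line for all listed genes at 0.25. Red points were called higher and blue points lower on the deposited values. The 2 points farthest to the left are Derl3 and Uggt1, in the list of ER partners.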

How the data were processed

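Poly(A) RNA of 1 normal and 1 diabetic liver library was profiled as DpnII tags on an Illumina 1G sequencer. The authors removed adaptors, kept clean tags, compared them with RefSeq and deposited 1 value per gene, named TPM. These values are RPM, that is tags per 1000000 clean tags, rounded to 2 decimals, with 0.01 for 0 tags and without genes whose mean was under 1. The submitters' processing notes name the build mm9, and the aligner is not given in the sources used here. No other column of values was left unused (0).

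The step of the deposited values was 0.0973 TPM in the normal and 0.0740 TPM in the diabetic library. Of the values above the placeholder, 8513 of 8513 and 8536 of 8537 were whole reads within 0.1 read. A count of 3 reads is 0.292 and 0.222 TPM. The tags carry no molecular identifiers, so reads are not independent molecules. FDR came from the exact binomial test, ratio intervals from the Clopper-Pearson method and level intervals from the exact Poisson method (Python 3.11.15, scipy 1.17.1, numpy 2.4.6, pandas 2.3.3, matplotlib 3.10.9). TMM scaling trimmed 30% of log ratios and 5% of abundances at each end. Scripts were tested on simulated data.

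The named genes were all 10 of the list, the listed genes of 7 related lists, markers of liver cell types and Lepr. Among genes averaging 1000 TPM or more, the 3 nearest to Sepp1 in ratio and those above it were named. Some genes of the related lists are not reported here. The genes and lists were chosen with earlier results of these data known. Symbols were matched through Entrez numbers, and 8317 of 8551 rows had a RefSeq gene. Transcripts and reading frames came from GENCODE M21, with 1 reference transcript per gene.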

Additional observations from a re-analysis of the deposited data

How the results depend on the processing

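No paired analysis was possible because each group holds 1 library, and no library could be left out. Of the 9 genes, 3 were called higher under every alternative except a fold threshold of 2, which left 2 and ended the call of Sep15. The number called lower, 0 on the deposited values, was 1 (Selk) after scaling to the sum of listed genes, TMM, median-ratio and upper-quartile scaling, and 1 (Selt) by fold change alone. The median log2 ratio of the 9 genes, 0.2494 on the deposited values, was -0.01 after scaling to the sum, -0.0029 after TMM, -0.056 after median-ratio and -0.0188 after upper-quartile scaling. It was 0.43 with a minimum mean of 5 TPM, which leaves 7 of the genes. Sepx1, Selm and Dio1 changed sign under each of the 4 scalings. These lower all log2 ratios by 0.25 to 0.31, and which scaling is nearest to the truth was not tested. Over all listed genes, the deposited values gave 1955 genes higher and 700 lower, and TMM gave 1272 and 1147. Of 42 genes in the related lists, 6 to 8 lost and 5 gained a call under the scalings. With the Audic-Claverie test in place of the exact binomial test, the calls of the 9 genes were as before. Selm, Selt, Sepsecs, Eefsec, Derl3, Foxo1, Msrb3, Sepn1 and Txnrd3, with under 100 reads in each library, are limited by depth. No difference between mice can be judged from 1 library per group.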
